A study of Arabidopsis thaliana with 8 samples.

Results

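The rpoB operon of the Arabidopsis thaliana plastid genome carries rpoB, rpoC1 and rpoC2, and its contacts with the rest of the plastid DNA were taken from a Hi-C map. Hi-C ligates DNA ends that lie near each other and counts the joined pairs. The operon was defined by position, not by any measured value, as 11 consecutive bins of 1 kb from position 16001 to 27000 of the plastid chromosome (Pt) of TAIR10, out of 155 bins in all. Every bin pair with at least 1 end in these bins was used, which gave 1650 of 12090 pairs. A bin is named below by its first base. By the RefSeq gene table, rpoB overlaps bins 23001 to 26001, rpoC1 overlaps bins 20001 to 23001, and rpoC2 overlaps bins 16001 to 20001 and ends in bin 15001, just outside the operon as defined here. All 11 bins lie in the large single copy region, outside the 2 copies of the inverted repeat, where a read fits either copy.

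The genes encode subunits of the plastid-encoded RNA polymerase, a bacterial-type enzyme that transcribes most photosynthesis genes of the chloroplast. rpoB encodes the beta subunit, rpoC1 and rpoC2 encode the parts of the bacterial beta-prime subunit, which is split in plastids, and the alpha subunit is encoded elsewhere, by rpoA. Transcription of the operon runs from rpoB through rpoC1 to rpoC2, and it is carried out by a nuclear-encoded, phage-type polymerase, so the operon is a standard example of a plastid locus that does not depend on the enzyme it encodes.

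Crosslinked libraries (EGS, 4 replicates) and non-crosslinked libraries (nox, 4 replicates) came from chloroplast membrane preparations of rosette leaves of wild-type plants of the ecotype labelled Col0, 14 days old. For the crosslinked libraries, the protocol treats isolated chloroplasts with EGS, an amine-reactive crosslinker of proteins, at 5 mM for 45 min, and with formaldehyde at 4% for 4 h. All 8 samples carry this text, and the treatment label alone sets the non-crosslinked libraries apart; the series calls them negative controls, so they measure ligation without crosslinks. The labels do not say whether replicates are separate plant batches, and all p-values measure only the spread between these libraries.

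The crosslinked libraries held 351828 to 543800 contacts and the non-crosslinked libraries 357017 to 708524. Replicates 1 and 2 of each group were deeper than its replicates 3 and 4. Contacts over 5 kb numbered 10932 to 52972 in the crosslinked group, against 2643 to 50516 in the non-crosslinked group. Non-crosslinked replicates 3 and 4 stood apart, with 0.740% and 1.03% of their contacts over 5 kb, against 3.11% to 9.74% in the other 6 libraries. The operon's called long-range bin sums, the partners named for the largest changes and the called segments kept their direction and their call without them. For the other named partners and the bins flanking the operon, values without them are not given. Elsewhere, values without them stand beside the results where these 2 libraries were extreme. Distances treat the copies of a repeat bin as 1 place.

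The clearest difference along the operon lay in rpoB, where the bin 25001 had about 2 times the long-range contacts in crosslinked libraries. Its summed contacts over 5 kb, in CPM, a bin's share of all such sums scaled between libraries by TMM, were 8472, 7942, 8192 and 8488 in crosslinked replicates 1 to 4, against 3946, 4314, 2665 and 2601 in non-crosslinked replicates 1 to 4. Every crosslinked library was above every non-crosslinked one, and the crosslinked values varied by only a few percent. The log2 difference was 1.08 ± 0.10 (SE), a 2.12-fold higher value, with an edgeR quasi-likelihood adjusted p of 2.09e-07 over all 155 bins. Raw counts behind these values were 937, 482, 303 and 192 in crosslinked libraries, against 389, 273, 13 and 21 in non-crosslinked libraries. The difference was 0.99 within the deeper replicates 1 and 2, 1.55 within replicates 3 and 4, and 1.00 without non-crosslinked replicates 3 and 4. Bin 25001 ranked highest of the 11 bins in crosslinked libraries and lowest in non-crosslinked ones, where it did not differ from bins 19001 and 18001 beyond their spread.

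The other rpoB bins did not share this difference. Bin 26001, which holds the start of rpoB, had 7419 ± 779 CPM over 5 kb in crosslinked libraries and 7652 ± 1243 CPM in non-crosslinked libraries (SD, n = 4 each), with a log2 difference of 0.05 ± 0.11 and overlapping groups. Bin 24001 had 5515 ± 337 CPM in crosslinked libraries and 5768 ± 679 CPM in non-crosslinked libraries, and bin 23001, shared with rpoC1, had 6511 ± 384 CPM in crosslinked libraries and 6245 ± 686 CPM in non-crosslinked libraries. None of these 3 passed the test, with log2 differences of -0.14 for bin 24001 and 0.06 for bin 23001. Just beyond the start of rpoB, outside the operon, bin 27001 with the tRNA gene trnC was lower by far, at 3646 ± 639 CPM in crosslinked libraries and 12170 ± 1299 CPM in non-crosslinked libraries (log2 difference -1.67 ± 0.12, edgeR adjusted p 1.75e-08). Bins 25001 and 27001 therefore differed in opposite directions, with bin 26001 between them.

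Of the 4 bins that rpoC1 overlaps, bins 21001 and 22001 had fewer long-range contacts in crosslinked libraries, and bins 20001 and 23001 were not called. Bin 21001 had 4801, 4680, 5029 and 5924 CPM in crosslinked replicates 1 to 4, against 7719, 6574, 6765 and 6440 CPM in non-crosslinked replicates 1 to 4. The groups did not overlap, and the log2 difference was -0.49 ± 0.096 (edgeR adjusted p 0.000259). Within replicates 3 and 4 alone the difference was -0.35 and did not pass the test. Bin 22001 had 5180 ± 469 CPM in crosslinked libraries and 6798 ± 671 CPM in non-crosslinked libraries, a log2 difference of -0.35 ± 0.092 (edgeR adjusted p 0.00296), which was -0.17 and not called when repeat bins were left out. Bin 20001, where rpoC1 meets rpoC2, had 5417 ± 153 CPM in crosslinked libraries and 5039 ± 544 CPM in non-crosslinked libraries and was not called.

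rpoC2 was split. Its bins 18001 and 19001 were higher and its bins 16001 and 17001, toward the end of the gene, were lower in crosslinked libraries. Bin 18001 had 6583, 6245, 7381 and 5835 CPM in crosslinked replicates 1 to 4, against 4453, 4409, 2870 and 2725 CPM in non-crosslinked replicates 1 to 4 (log2 difference 0.64 ± 0.12, edgeR adjusted p 0.000126). Bin 19001 had 6319 ± 498 CPM in crosslinked libraries and 3507 ± 1318 CPM in non-crosslinked libraries (0.57 ± 0.13, edgeR adjusted p 0.00128). Neither bin's groups overlapped, and non-crosslinked replicates 3 and 4 held the lowest values of both. Without those 2 libraries the log2 differences were 0.55 for bin 18001 and 0.46 for bin 19001, both still called. They were 0.53 and 0.45 within replicates 1 and 2, and 1.16 and 1.22 within replicates 3 and 4. Bin 17001 had 4981 ± 392 CPM in crosslinked libraries and 7393 ± 858 CPM in non-crosslinked libraries (-0.47 ± 0.093, edgeR adjusted p 0.000277). Bin 16001 differed least of the called bins, at 4973 ± 541 CPM in crosslinked libraries and 6030 ± 481 CPM in non-crosslinked libraries (-0.35 ± 0.099, edgeR adjusted p 0.00477). Its call was lost without non-crosslinked replicate 1, where the log2 difference was -0.27, within replicates 3 and 4 (-0.18), with same-bin counts as an offset (-0.11) and without repeat bins (-0.17). Outside the operon, bin 15001, with the end of rpoC2 and rps2, was lower, at 4961 ± 556 CPM in crosslinked libraries and 9038 ± 1368 CPM in non-crosslinked libraries (-0.79 ± 0.10, edgeR adjusted p 3.18e-06).

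**Figure D1:**
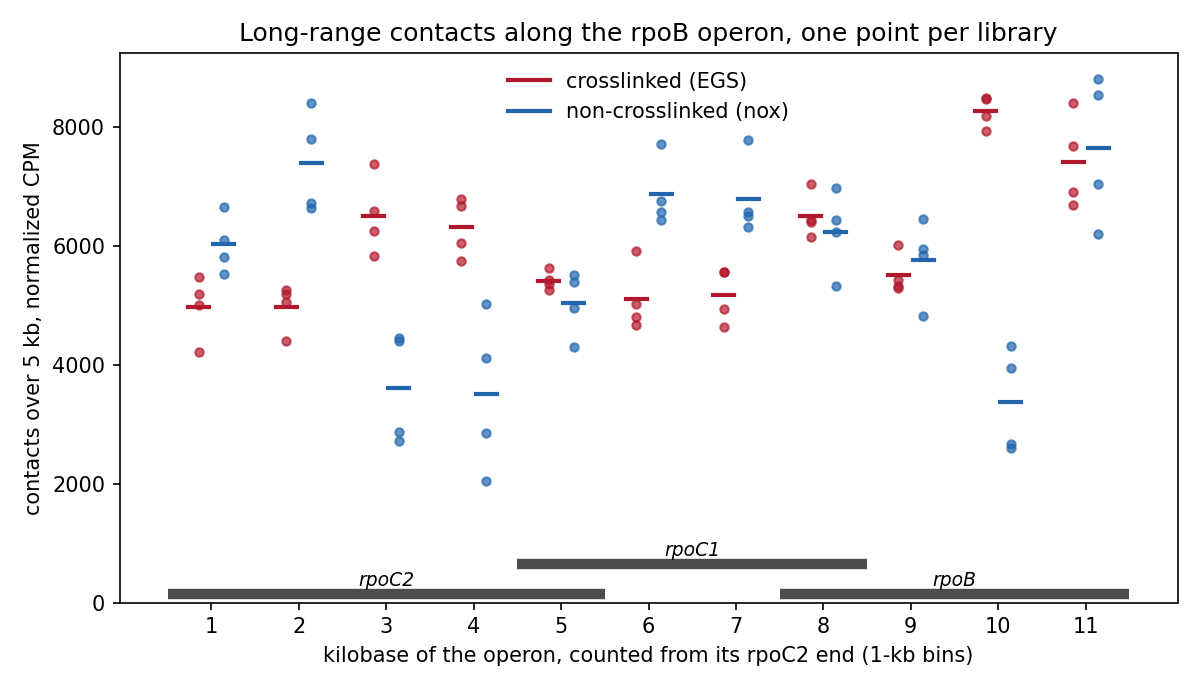
Normalized contacts over 5 kb (CPM, vertical axis) of each 1-kb bin of the operon (horizontal axis, kilobase 1 is bin 16001 and kilobase 11 is bin 26001), with 1 point per library, crosslinked in red to the left and non-crosslinked in blue to the right of each tick, and bars at group means. Grey bars mark the bins each gene overlaps; at kilobase 10, bin 25001, the red points lie between 7942 and 8488 and the blue points between 2601 and 4314.

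In all, 7 of the 11 bins passed the test, 3 higher and 4 lower in crosslinked libraries, or 5 higher and 2 lower when repeat bins were left out. Over all 155 bins the share called was 66.5%, with 31.6% higher and 34.8% lower, so the operon's share of calls was close to that of the plastid genome. The groups did not overlap in 7 of 11 operon bins, against 65.2% of all bins. The median log2 difference was 0.03 for the operon and 0.05 for all bins. Summed over the operon, the groups overlapped, at 66207 ± 2297 CPM in crosslinked libraries and 62301 ± 3112 CPM in non-crosslinked libraries (SD, n = 4 each). The called differences lay between kilobases of the operon and went both ways.

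In group means, the spread of levels along the operon was narrower in crosslinked libraries, as a description with no test. The highest mean exceeded the lowest by 1.66-fold in crosslinked libraries and by 2.26-fold in non-crosslinked libraries. This contrast rested on non-crosslinked replicates 3 and 4, whose bins ranged from 2050 to 8816 CPM and from 2601 to 8546 CPM. Non-crosslinked replicates 1 and 2 ranged from 3946 to 7719 CPM and from 4109 to 7048 CPM. Crosslinked replicates 1 and 2 ranged from 4801 to 8472 CPM and from 4218 to 7942 CPM, so the deeper libraries did not show the contrast. In crosslinked libraries the order began with bins 25001, 26001, 18001, 23001 and 19001, and only 3 of the 10 steps between neighbours in that order exceeded the larger of their SDs. In non-crosslinked libraries it began with bins 26001, 17001, 21001 and 22001 and ended with bins 18001, 19001 and 25001, and 2 of 10 steps exceeded the SDs. The 3 bins that were higher in crosslinked libraries were thus the 3 lowest of the non-crosslinked ones.

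By gene, with each shared bin given to 1 gene, the 4 rpoB bins took 40.8%, 42.9%, 41.4% and 42.4% of the operon's contacts over 5 kb in crosslinked replicates 1 to 4, against 35.1%, 37.1%, 39.3% and 36.6% in non-crosslinked replicates 1 to 4. The 3 rpoC1 bins took 23.7% ± 0.544 in crosslinked libraries and 30.0% ± 0.549 in non-crosslinked libraries (SD, n = 4 each). Neither share overlapped between the groups. The 4 rpoC2 bins took 34.4% ± 1.19 in crosslinked libraries and 32.9% ± 1.88 in non-crosslinked libraries, which overlapped. These shares add up to the whole and were given no test.

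Counting all contacts with other bins, mostly those between adjacent bins, 5 of 11 bins passed the test, against 48.4% of all 155 bins. Bins 25001, 24001 and 19001 were higher (22.6% of all bins were) and bins 16001 and 21001 lower (25.8% of all bins were). Without TMM scaling, the calls were 3 higher and 0 lower, with 3 higher and 3 lower by DESeq2. The call of bin 19001 (0.59) was lost when any of crosslinked replicates 1, 2 or 3 or non-crosslinked replicates 3 or 4 was left out, at 0.51 to 0.61. Within replicates 1 and 2 the calls of bins 24001 (0.22), 16001 (-0.12) and 21001 (-0.19) were lost, and that of bin 16001 also without non-crosslinked replicates 3 and 4 (-0.12). For bin 25001 the counts were 1870, 1312, 946 and 727 in crosslinked libraries, against 963, 767, 221 and 274 in non-crosslinked libraries. As CPM they did not overlap, and the log2 difference was 1.10 ± 0.18 (edgeR adjusted p 3.92e-07). Bin 26001 with the start of rpoB had the most such contacts of the 11 bins in both groups, at 6726 ± 287 CPM in crosslinked libraries and 6236 ± 1033 CPM in non-crosslinked libraries, and was not called (0.11 ± 0.097). The medians over the operon and over all bins were 0.11 and -0.02 on the log2 scale.

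Ligations within 1 bin made up most operon contacts. Of the 11 same-bin pairs, 7 were lower and 0 higher in crosslinked libraries by edgeR, against 49.7% lower and 5.81% higher among all 155 same-bin pairs. At an unadjusted p under 0.05 the counts were the same, 7 lower and 0 higher, and DESeq2 called 3 lower and 0 higher. These calls rest on the filter on low counts: without it, 0 of the 7 was called by edgeR (adjusted p 0.0914 to 0.295), although all 7 had an unadjusted p under 0.05. The largest decreases were in rpoC2 bin 17001 (log2 difference -0.49 ± 0.074, edgeR adjusted p 0.000163) and in rpoB bin 24001, with 3365, 3331, 3288 and 3530 CPM in crosslinked replicates 1 to 4, against 4385, 4652, 4977 and 4668 CPM in non-crosslinked replicates 1 to 4 (-0.47 ± 0.061, edgeR adjusted p 6.04e-05). The 4 bins that were not called were 18001, 19001, 25001 and 26001. Bins 18001, 19001 and 25001 were also the bins with more long-range contacts. Across the 11 bins, the log2 differences of long-range and same-bin contacts had a Pearson r of 0.91 and a Spearman rho of 0.86, a description of 11 neighbouring bins that share the same libraries. Same-bin counts therefore moved with the long-range result, and their part in it was not tested beyond using them as an offset, which left bin 25001 at a log2 difference of 0.79 (edgeR adjusted p 1.6e-07).

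Adjacent bins joined more often in crosslinked libraries at 4 places in the operon. Contacts of bin 24001 with bin 25001, both inside rpoB, were 505, 468, 373 and 305 in crosslinked replicates 1 to 4, against 281, 251, 78 and 117 in non-crosslinked replicates 1 to 4. As CPM these were 952 ± 72.1 in crosslinked libraries and 356 ± 99.8 in non-crosslinked libraries (SD, n = 4 each), with a log2 difference of 1.38 ± 0.17 (edgeR adjusted p 4.18e-05). The groups did not overlap, and the difference was 1.03 within replicates 1 and 2 and 1.77 within replicates 3 and 4. Without the filter on low counts it was 1.01 and was not called (edgeR adjusted p 0.0688).

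Contacts of bin 19001 with bin 20001, near the start of rpoC2, were 235, 253, 205 and 162 in crosslinked libraries, against 121, 125, 48 and 49 in non-crosslinked libraries. Their log2 difference was 1.48 ± 0.15 (edgeR adjusted p 1.86e-05), the largest of the 23 operon pairs tested. It was the 1 adjacent pair of the operon still called without the filter (1.12, edgeR adjusted p 0.0306). Bins 25001 and 26001 in rpoB had a difference of 0.70 ± 0.091 (edgeR adjusted p 6.08e-05), and bins 17001 and 18001 in rpoC2 one of 0.65 ± 0.11 (edgeR adjusted p 0.000456). Both pairs had groups that did not overlap. They kept these calls without TMM scaling but not in the DESeq2 fit, where the differences were 0.29 for bins 25001 and 26001 and 0.19 for bins 17001 and 18001.

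The other 8 adjacent pairs, among them the pairs that leave the operon at either end, were not called. The pair of bin 26001 with bin 27001 had the most contacts of the adjacent pairs in both groups, at 3792 ± 259 CPM in crosslinked libraries and 3177 ± 580 CPM in non-crosslinked libraries, with a log2 difference of 0.26 ± 0.12. Increases were made by 4 of 12 adjacent pairs here and by 61.9% of all 155 adjacent pairs. Decreases were made by 0 of 12 by edgeR, also at an unadjusted p under 0.05 and by DESeq2, and by 8.39% of all. In the edgeR fit without the filter, 2 of 12 were higher and 2 lower at an unadjusted p under 0.05. The median adjacent log2 difference was 0.18 in the operon and 0.45 over all adjacent pairs. Of all 23 operon pairs that passed the filter, 11 were called, 4 higher and 7 lower, against 61.4% of all 381 pairs tested, 34.4% higher and 27% lower. Groups did not overlap in 11 of the 23, against 56.4% of all. Without TMM scaling 10 were higher and 5 lower, and the median of all pairs moved by 0.12.

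**Figure D2:**
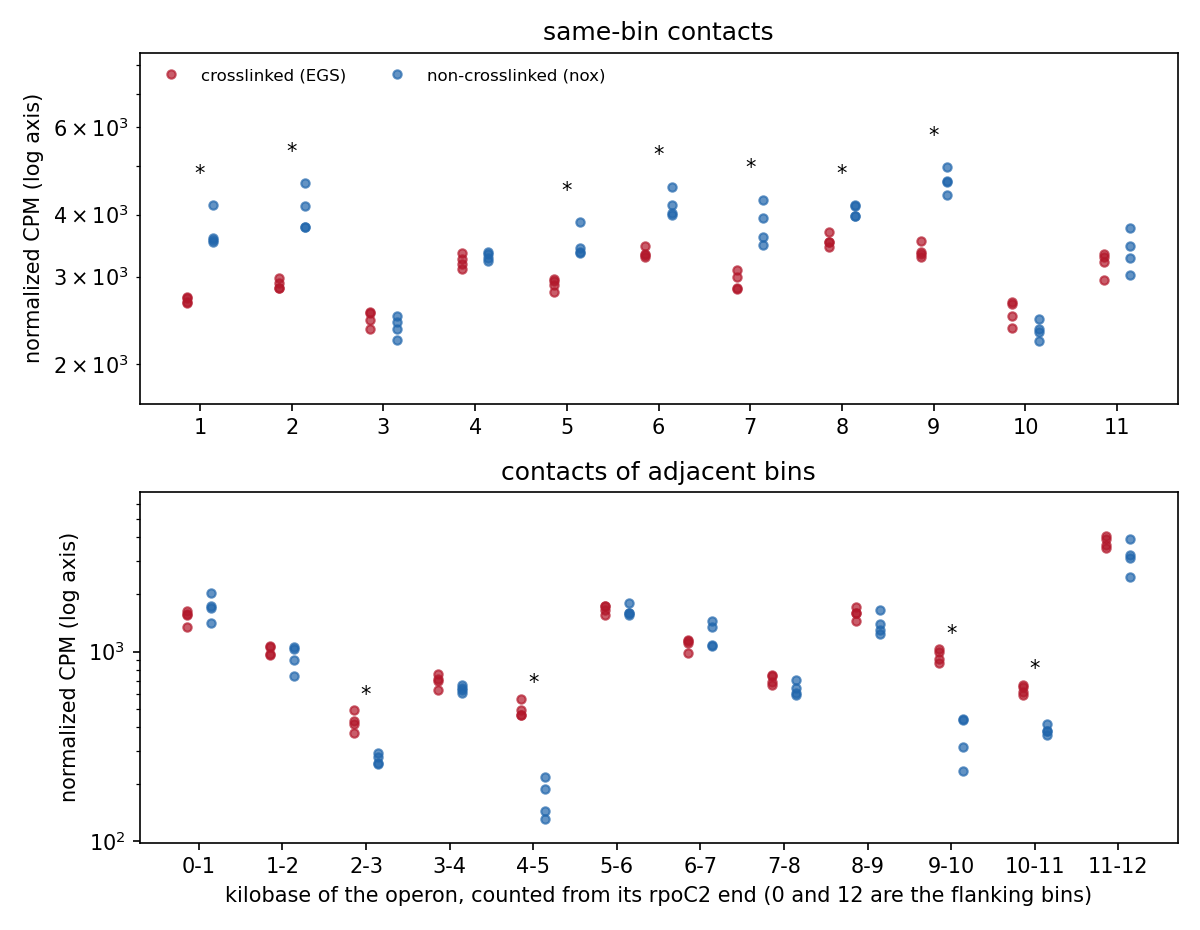
Normalized counts (CPM, log axis) of same-bin contacts (upper panel) and contacts of adjacent bins (lower panel) along the operon (horizontal axis, kilobases from the rpoC2 end), with 1 point per library, crosslinked in red left and non-crosslinked in blue right of each tick. Asterisks mark edgeR adjusted p under 0.05: 7 same-bin pairs with lower and 4 adjacent pairs with higher values in crosslinked libraries.

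Single pairs of bins beyond the neighbours held too few contacts to pass the filter. Over 5 kb, the mean count per operon pair lay between 0.192 and 4.61 in the 8 libraries. Without the filter, 3 of 1569 such pairs were called by edgeR, while 159 had an unadjusted p under 0.05. Over all bin pairs beyond 5 kb the share called in that fit was 0.874%. The 3 joined bin 25001 in rpoB with bin 18001 in rpoC2 (log2 difference 1.83, edgeR adjusted p 0.0135), bin 25001 with bin 32001 in psbD, which encodes the photosystem II protein D2 (1.98, edgeR adjusted p 0.00739), and bin 19001 in rpoC2 with bin 150001 in ycf2 (1.37, edgeR adjusted p 0.0451). Each was higher in crosslinked libraries. Closer by, bin 25001 with bin 23001 (1.66, edgeR adjusted p 0.0359) and bin 24001 with bin 26001 (1.68, edgeR adjusted p 0.0347) were called in the same way. In all, 6 of the 1650 operon pairs were called without the filter, 6 higher and 0 lower, against 1.56% of all 12089 pairs, 0.918% higher and 0.645% lower. Bin 25001 was an end of 3 of the 6, and bin 19001 of another 2. At an unadjusted p under 0.05, 119 operon pairs were higher and 66 lower.

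By distance, same-bin contacts made up 52.8%, 58.2%, 59.5% and 65.2% of the operon's contacts in crosslinked replicates 1 to 4, against 62.5%, 67.6%, 76.0% and 71.4% in non-crosslinked replicates 1 to 4. Adjacent contacts made up 25.9% ± 1.94 in crosslinked libraries and 22.1% ± 2.93 in non-crosslinked libraries (SD, n = 4 each). Contacts at 2 to 5 kb were 1.06% ± 0.331 in crosslinked libraries and 0.368% ± 0.315 in non-crosslinked libraries. Contacts at 20 to 50 kb were 8.34% ± 3.82 in crosslinked libraries and 4.45% ± 4.08 in non-crosslinked libraries. The groups overlapped in every one of the 6 distance classes, and a 95% Wilson interval on the share of a single library was no wider than ± 0.692 percentage points.

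Of the operon's contacts with other bins, 47.7%, 31.9%, 29.8% and 24.0% spanned over 5 kb in crosslinked replicates 1 to 4, against 43.9%, 37.7%, 6.71% and 7.94% in non-crosslinked replicates 1 to 4. The difference of 9.28 percentage points did not pass an exact two-sided permutation test over the 70 assignments of the libraries (p = 0.429), whose smallest possible p is 0.0286. Within replicates 1 and 2 the difference was -1.02 points, and within replicates 3 and 4 it was 19.6 points. Without non-crosslinked replicates 3 and 4 it turned to -7.44 points. Its sign depended on those libraries.

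The excess of contacts at 2 to 5 kb over those farther away was larger in crosslinked libraries. Contacts per bin pair at 2 to 5 kb over those at 20 to 50 kb, within the large single copy region, were 1.59, 1.93, 2.13 and 1.95 for the operon in crosslinked replicates 1 to 4, against 1.08, 1.08, 1.02 and 1.24 in non-crosslinked replicates 1 to 4. The lowest crosslinked value was above the highest non-crosslinked one. The operon's values in non-crosslinked replicates 3 and 4 rest on only 15 and 26 contacts at 2 to 5 kb, and on 94 and 133 at 20 to 50 kb. The difference of 0.794 had an exact two-sided permutation p of 0.0286, the smallest possible, or 0.0429 after Benjamini-Hochberg adjustment over the 3 values tested per library. It was 0.678 within replicates 1 and 2, and 0.911 within replicates 3 and 4. Without non-crosslinked replicates 3 and 4 it was 0.819, where the smallest possible p is 0.0667.

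In crosslinked libraries this ratio was lower for the operon than for the rest of the large single copy region. The same ratio in the other 73 bins of that region was 2.02, 2.30, 2.46 and 2.37 in crosslinked replicates 1 to 4, each above the operon's value in that library. In non-crosslinked replicates 1 to 4 it was 0.993, 1.01, 0.802 and 1.02, each below the operon's value. In replicates 3 and 4 of that group the operon's value rests on the few contacts given above, and counting error was not tested. The operon minus the rest was -0.390 ± 0.0431 in crosslinked libraries and 0.149 ± 0.0796 in non-crosslinked libraries (SD, n = 4 each), and these differed by -0.539 (exact two-sided permutation p = 0.0286, 0.0381 after adjustment over the 4 values). This comparison was added after the data were seen. It held within replicates 1 and 2 (-0.485) and within replicates 3 and 4 (-0.593).

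**Figure D3:**
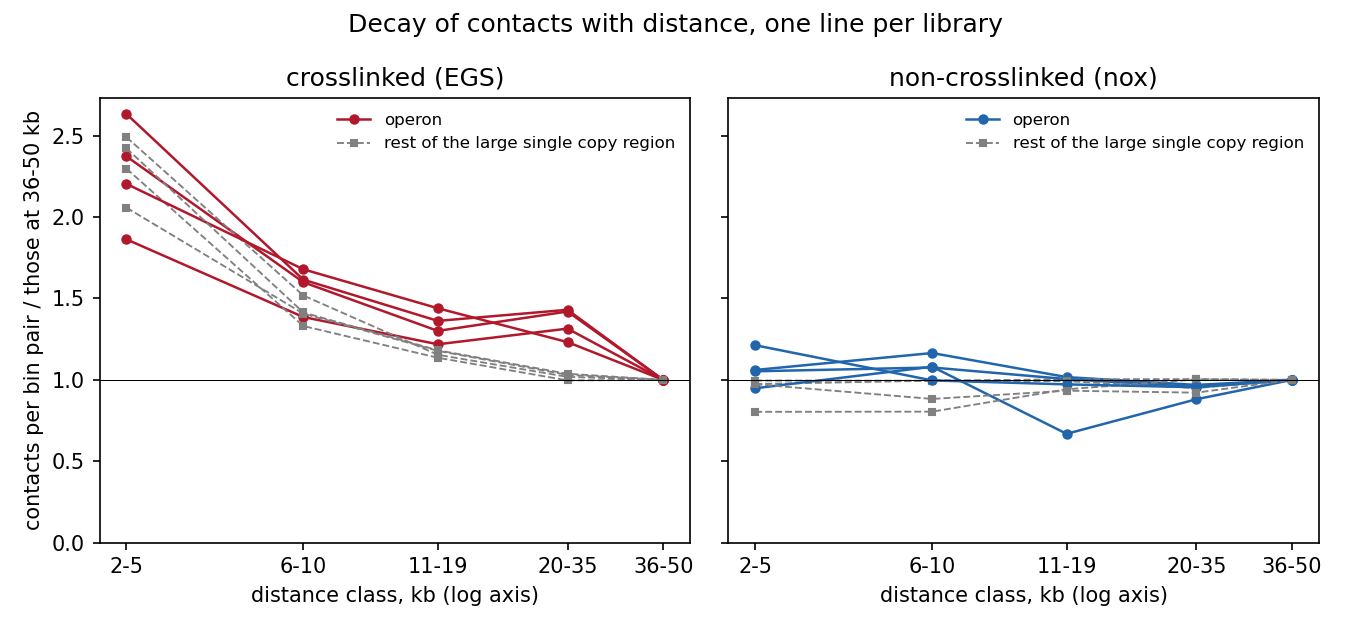
Contacts per bin pair in 5 distance classes (horizontal axis, kb, log scale), divided by those of the same library at 36 to 50 kb (vertical axis), for the operon (solid lines) and the rest of the large single copy region (dashed grey lines), crosslinked libraries left and non-crosslinked libraries right, 1 line per library. All 4 crosslinked lines of the operon are highest at 2 to 5 kb, and 3 of them rise a little between 11 to 19 kb and 20 to 35 kb, while the non-crosslinked lines stay near 1, apart from 1 library that dips at 11 to 19 kb.

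Inside the operon, pairs of its own bins 2 or more bins apart had 361, 232, 173 and 100 contacts in crosslinked replicates 1 to 4, against 193, 123, 6 and 18 in non-crosslinked replicates 1 to 4, over 45 bin pairs. Divided by the number expected from each library's mean at the same distances in the large single copy region, these were 0.826, 0.782, 0.945 and 0.891 in crosslinked libraries, against 0.711, 0.712, 0.486 and 0.775 in non-crosslinked libraries. All 8 values were below 1 on this scale. The difference of 0.190 (0.0924 within replicates 1 and 2, and 0.288 within replicates 3 and 4) had an exact two-sided permutation p of 0.0286 (0.0429 adjusted over 3 values). It did not hold once the expected number was scaled by the coverage of each bin, where 7 of the 8 values were above 1. The values were then 1.12 ± 0.0636 in crosslinked libraries and 1.24 ± 0.292 in non-crosslinked libraries, with overlapping groups and a difference of -0.115 (exact two-sided permutation p = 0.629).

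Partners of the operon over 5 kb were compared next, as the contacts of each of the other 144 bins with the 11 operon bins together. In crosslinked libraries 20 partners took more and 24 less of the operon's contacts by edgeR, which is 30.6% of the 144 (13.9% higher and 16.7% lower). The groups did not overlap at 22.2% of the partners. Of 54 repeat bins, 14 were higher and 0 lower, with 17 higher and 4 lower at an unadjusted p under 0.05 and 5 higher and 0 lower by DESeq2. Of 17 bins of the small single copy region, 0 were higher and 9 lower, with 1 higher and 9 lower at an unadjusted p under 0.05 and 0 higher and 6 lower by DESeq2. Of 73 bins of the large single copy region, 6 were higher and 15 lower, with 8 higher and 22 lower at an unadjusted p under 0.05 and 2 higher and 2 lower by DESeq2. The repeat took 31.1% to 35.4% of these contacts in crosslinked libraries, against 19.3% to 29.2% in non-crosslinked libraries, where replicates 3 and 4 were the lowest at 19.3% and 19.7%. The small single copy region took 10.3% ± 0.482 in crosslinked libraries and 17.0% ± 2.18 in non-crosslinked libraries (SD, n = 4 each). Neither share overlapped between the groups. The share of the large single copy region, 57.0% ± 1.59 in crosslinked libraries and 59.3% ± 3.36 in non-crosslinked libraries, did.

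The partners that rose most in crosslinked libraries lay mainly in ycf2, a large essential gene of the repeat whose product belongs to a protein import motor. Bin 146001 in 1 copy of ycf2 had 62, 28, 18 and 11 contacts with the operon in crosslinked replicates 1 to 4, against 12, 5, 1 and 0 in non-crosslinked replicates 1 to 4 (log2 difference 1.92 ± 0.29, edgeR adjusted p 4.31e-08). Bins 91001, 86001 and 88001 of the other copy had differences of 1.63 ± 0.28, 1.60 ± 0.25 and 1.32 ± 0.27. A repeat bin matches parts of 2 neighbouring bins in the other copy, and bins 91001 and 146001 match each other in part. At the other matching places in the copy of bin 146001, the differences were smaller. Bins 147001, 152001 and 150001 had 0.61 ± 0.22, 0.67 ± 0.23 and 0.82 ± 0.29 there, each called but with overlapping groups. Bins 151001 and 149001, which match bins 86001 and 88001 in part, had 0.68 ± 0.27 and 0.70 ± 0.28, also called with overlapping groups. Bin 92001, the other match of bin 146001, had 1.32 ± 0.31. Reads cannot be placed in 1 copy or the other, so the copies are not separate evidence. In the large single copy region, bin 32001 in psbD had 83, 68, 29 and 26 contacts in crosslinked libraries, against 48, 27, 2 and 2 in non-crosslinked libraries (0.90 ± 0.21, edgeR adjusted p 0.00043).

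The partners that fell most lay in the small single copy region and in the late part of the large one. Bin 126001 in ycf1 had 25, 11, 9 and 5 contacts with the operon in crosslinked replicates 1 to 4, against 95, 50, 2 and 7 in non-crosslinked replicates 1 to 4 (-1.89 ± 0.20, edgeR adjusted p 8.67e-14). In raw counts the shallow non-crosslinked libraries were as low as the crosslinked ones, and the difference lies in the share of each library's operon contacts. Bin 65001, with the cytochrome b6f genes petL and petG, had 30, 20, 10 and 3 contacts in crosslinked libraries, against 81, 58, 5 and 10 in non-crosslinked libraries (-1.62 ± 0.20, edgeR adjusted p 3.08e-11). Bin 114001 with trnL and ccsA, a gene for cytochrome c assembly, differed by -1.60 ± 0.20, and bin 120001 in the NDH complex gene ndhA by -1.14 ± 0.21.

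None of these partner differences was called against the rest of the large single copy region. In a comparison added after the data were seen, each partner's contacts with the operon were set against its contacts with the other 73 bins of that region, with each library as its own block. By edgeR 0 of 144 partners were then called, 25 had an unadjusted p under 0.05, and the smallest adjusted p was 0.0557. Bin 126001 moved to 0.12 ± 0.26 and bin 65001 to 0.02 ± 0.24, bins 91001 and 86001 to 0.94 ± 0.31 (edgeR adjusted p 0.0557) and 0.81 ± 0.29 (edgeR adjusted p 0.0882), and bins 146001 and 88001 to 0.55 ± 0.35 and -0.13 ± 0.29. At the other matching places, bins 147001, 152001 and 150001 moved to -0.28 ± 0.25, -0.32 ± 0.26 and -0.32 ± 0.30. Bins 151001 and 149001 moved to 0.08 ± 0.28 and -0.17 ± 0.28, and bin 92001 to 0.29 ± 0.33. Over the 17 bins of the small single copy region the median relative difference was 0.09, against -0.67 before.

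**Figure D4:**
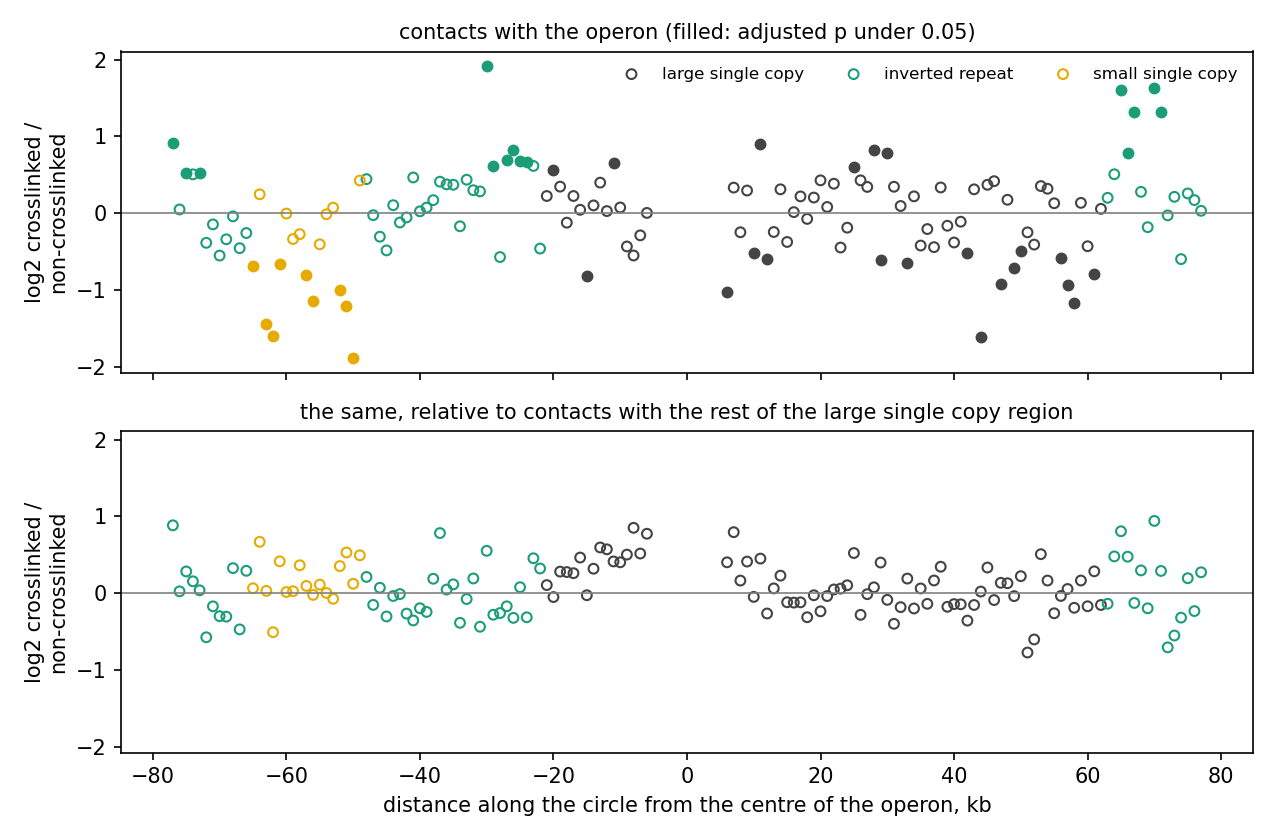
Log2 difference, crosslinked over non-crosslinked, in contacts of each partner bin with the operon (upper panel), and the same relative to that partner's contacts with the rest of the large single copy region (lower panel), by distance along the circle from the operon's centre (horizontal axis, kb, toward rpoC2 negative). Filled points have an edgeR adjusted p under 0.05, 44 of 144 in the upper panel and 0 of 144 in the lower, and colours mark the 3 regions.

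rpoA, the gene for the alpha subunit, took a smaller share of the operon's contacts over 5 kb in crosslinked libraries. Both of its bins were lower, against 16.7% of all partners, with overlapping groups at bin 77001. Bin 78001 had 35, 14, 6 and 9 contacts with the operon in crosslinked replicates 1 to 4, against 51, 37, 3 and 4 in non-crosslinked replicates 1 to 4 (-0.94 ± 0.22, edgeR adjusted p 0.000584), and bin 77001 had a log2 difference of -0.58 ± 0.20 (edgeR adjusted p 0.0222). Relative to the rest of the large single copy region these were 0.05 ± 0.27 for bin 78001 and -0.04 ± 0.23 for bin 77001, and neither was called.

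The genes on either side of the operon covered 11 bins as partners, of which 1 was higher and 1 lower, against 13.9% higher and 16.7% lower among all partners. The higher one was bin 10001 in atpA, for the ATP synthase alpha subunit (0.65 ± 0.20, edgeR adjusted p 0.00741). The lower one was bin 27001 with trnC, which had 25, 8, 1 and 3 contacts in crosslinked libraries, against 30, 23, 3 and 4 in non-crosslinked libraries (-1.03 ± 0.31, edgeR adjusted p 0.00702), and which was lower in its own long-range sum as given above. Relative to the rest of the large single copy region the median of the 11 flanking bins was 0.50, against 0.05 over all partners. None was called there, and 7 of 11 had an unadjusted p under 0.05, against 25 of all 144 partners.

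Photosynthesis genes, which the plastid-encoded polymerase transcribes, covered 26 partner bins, of which 2 were higher and 4 lower, against 13.9% and 16.7% of all partners, with a median log2 difference of 0.17 against 0.05 over all partners. The higher ones were bin 32001 in psbD and bin 1001, with part of psbA, the gene of the photosystem II protein D1 (0.57, edgeR adjusted p 0.0188). Among the lower ones, bin 54001 holds parts of atpB and rbcL (-0.65, edgeR adjusted p 0.0121) and bin 111001 holds part of ndhF (-0.69, edgeR adjusted p 0.00495). Within psbD the next bin, 33001, shared with psbC, went the other way (-0.60, edgeR adjusted p 0.0108).

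Housekeeping genes covered 36 bins, with 11 higher and 6 lower, against 13.9% and 16.7% of all partners, and a median log2 difference of 0.24 against 0.05. All 11 higher bins overlapped ycf2 in the repeat, some of them also its neighbours rpl23 and rpl2. ycf2 covered 8 bins in each copy, of which 5 were higher in 1 copy and 6 in the other. The copies are not separate evidence, so these counts reflect 1 gene rather than the list. The lower ones were bins of ycf1, of clpP, a protease subunit gene, and of rps18 and rpl20, for ribosomal proteins. The rRNA list matched gene names in 1 repeat copy. Of its 6 bins, 1 was called, bin 101001 in rrn16S (0.53, edgeR adjusted p 0.0374), against 30.6% of all partners, and the median was -0.24. Bins 136001 and 137001 of the other copy, which match bin 101001 in part, had differences of 0.02 and 0.07, and neither was called.

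Summed over 11 larger segments of the genome, 7 of the operon's segment contacts were called, 4 higher and 3 lower, against 66.2% of all 65 segment pairs, 32.3% higher and 33.8% lower. Without TMM scaling 5 were higher and 1 lower, and by DESeq2 4 were higher and 1 lower. The outer part of the repeat, with ycf2, had 1233, 611, 420 and 243 contacts with the operon in crosslinked replicates 1 to 4, against 701, 510, 26 and 38 in non-crosslinked replicates 1 to 4. As CPM over all segment pairs these were 22105 ± 1370 in crosslinked libraries and 12362 ± 3099 in non-crosslinked libraries, a log2 difference of 0.68 ± 0.11 (edgeR adjusted p 8.98e-07). The groups did not overlap. The inner part of the repeat, with the rRNA genes, was not called (0.22 ± 0.12), with overlapping groups.

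The small single copy region, which holds most NDH complex genes, had 13226, 13086, 14028 and 14401 CPM with the operon in crosslinked replicates 1 to 4, against 20323, 18362, 23737 and 19321 CPM in non-crosslinked replicates 1 to 4 (-0.54 ± 0.089, edgeR adjusted p 2.25e-06). The operon with itself beyond 5 kb had 110, 67, 48 and 29 contacts in crosslinked libraries, against 63, 44, 2 and 8 in non-crosslinked libraries (0.76 ± 0.18, edgeR adjusted p 0.000418); unlike the scaled value inside the operon above, this sum is not adjusted for bin coverage, and it was not called within replicates 3 and 4 (0.62). The segment from trnH to matK, which includes psbA, was higher (0.40 ± 0.10, edgeR adjusted p 0.00114), as was that from psaB to ndhJ, which includes the photosystem I gene psaA (0.31 ± 0.085, edgeR adjusted p 0.00147). The call of the psaB to ndhJ segment was lost without crosslinked replicate 1 (0.21) and without non-crosslinked replicate 1 (0.25). The segments from ycf4 to clpP and from clpP to rpl22 were lower by the same amount (-0.22 each, edgeR adjusted p 0.0219 and 0.0238). Each was not called in 6 of the 18 settings run, among them DESeq2 and the fit without TMM scaling. The segments that border the operon, from rps16 to rpoC2 and from trnC to psaB, had differences of 0.10 and 0.09 and were not called.

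**Figure D5:**
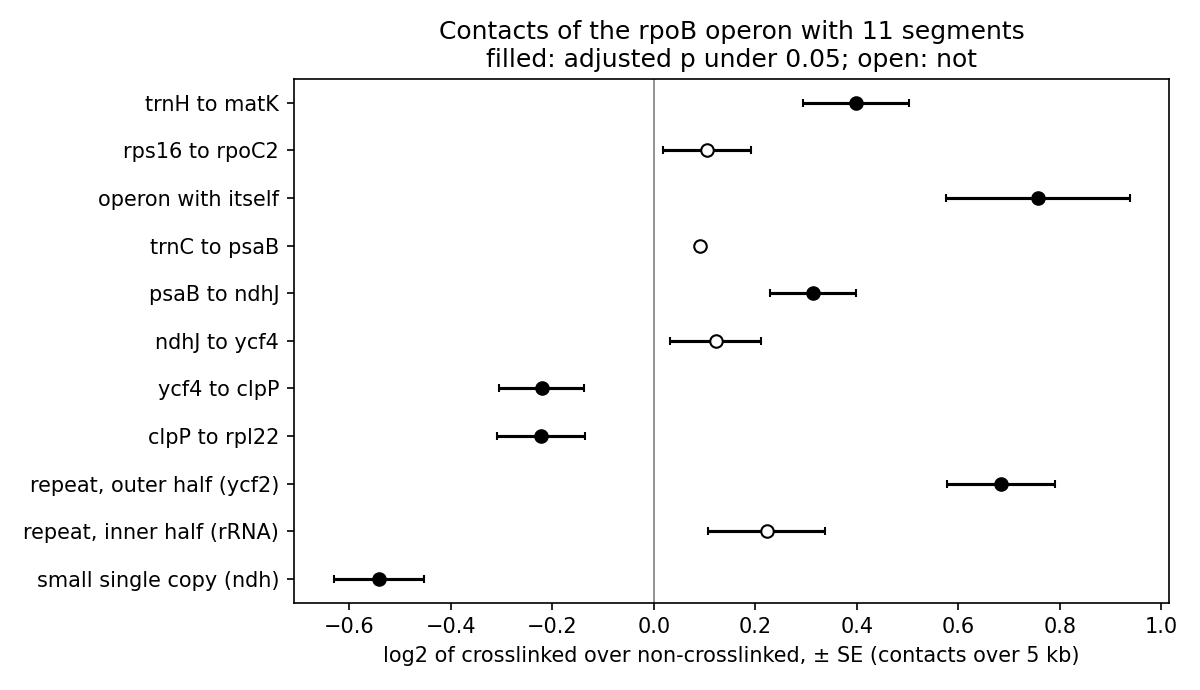
Log2 difference, crosslinked over non-crosslinked, ± SE (horizontal axis), in contacts over 5 kb of the operon with each of 11 segments in genome order (vertical axis). Filled points have an edgeR adjusted p under 0.05; the bar of the segment from trnC to psaB is left out because edgeR used a Poisson bound there. The outer repeat and the operon itself lie farthest to the right, at 0.68 and 0.76, and the small single copy region farthest to the left, at -0.54.

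The 5 bins outside the operon whose long-range sums most resembled the operon's over the 8 libraries were 122001 with ndhA and ndhH, 141001 with rps7 and ndhB, 100001 with trnV, 49001 with ndhJ and ndhK, and 137001 in the repeat. Their Pearson r with the operon on the log2 scale lay between 0.85 and 0.88, against a median of 0.37 over 140 bins. The operon's own sum ranged over only 0.233 log2 units in the 8 libraries, and all sums share the libraries' depth and scaling, so the likeness is a description.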

How the data were processed

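Hi-C was measured in 4 crosslinked and 4 non-crosslinked libraries. The authors deposited 1 table of raw contact counts per pair of 1-kb plastid bins, not normalized, with 1 column per library, per the file headers. Reads were handled with Trim Galore 0.4.1 and Juicer on TAIR10, per the submitters' processing notes; read filters and the restriction enzyme are not given in the sources used here. Columns were matched to samples by name, and all were used.

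Counts were summed per bin, per partner, per segment and per distance class. No matrix balancing was applied. CPM are computed here. The inverted repeat was found from anti-diagonal pairs with at least 1000 contacts. Tests across bins, pairs, partners and segments used edgeR 4.0.16 with R 4.3.3 (quasi-likelihood, TMM, Benjamini-Hochberg over the whole table, threshold 0.05, prior count 2, filterByExpr with a minimum count of 10). Standard errors are the log2 difference over the square root of F. Per-library values were tested by exact two-sided permutation in Python 3.11.15 with scipy 1.17.1. DESeq2 1.42.0, other scalings, filters, distance limits of 2 and 10 kb, depth classes and each left-out library were alternatives. The edgeR procedures were tested on simulated data.

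All 11 operon bins are described; named partners are up to 5 in each direction with the largest change among called bins whose groups do not overlap, leaving out any within 1 bin of a named one. Of these, 1 partner is not reported here. Other partners are named from lists of rpoA, flanking, photosynthesis, housekeeping and rRNA genes; 9 of 10 housekeeping and 3 of 4 rRNA names were found among partners. Likeness was ranked by Pearson r. The operon and the lists were chosen with earlier results of these data known. Gene names come from a RefSeq table of TAIR10.1 with 129 plastid genes, none of whose coordinates are given. Library totals of 351828 to 708524 contacts set the precision; Wilson intervals cover counting error only. The main tests did not treat replicate numbers as pairs, because the labels do not say that a number marks a shared preparation. Same-numbered libraries deviated together, with a correlation over 0.1, in 3 of 4 pairs for bin sums and 2 of 4 for long-range sums. The best match carried the same number in 2 of 4 for bin sums and 1 of 4 for long-range sums. This check does not settle whether the libraries are paired, and results with the number as a block are given below.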

Additional observations from a re-analysis of the deposited data

Results flagged for a closer look

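In 140 groups of 4 libraries that were checked, 11 held 1 library far from the other 3 by Dixon's test. Chance gives about 1 in 20. In sums of contacts with other bins, crosslinked replicate 1 had 2936 CPM at bin 17001 in rpoC2 (the others 2494 to 2511), 4141 CPM at bin 21001 in rpoC1 (4341 to 4358) and 6295 CPM at bin 26001 in rpoB (6858 to 6881), and non-crosslinked replicate 3 had 2801 CPM at bin 24001 in rpoB (3440 to 3505).

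Among same-bin and adjacent pairs, non-crosslinked replicate 3 had 4179 CPM within bin 16001 (the others 3527 to 3585) and 3857 CPM within bin 20001 (3345 to 3431), and non-crosslinked replicate 4 had 1798 CPM for bins 20001 and 21001 (1567 to 1588). Among partners of the operon, non-crosslinked replicate 3 had 0 CPM at bin 86001 in ycf2 (2361 to 2754) and 29348 CPM at bin 114001 with ccsA (11806 to 13607), where it held 10 contacts. Crosslinked replicate 3 had 1271 CPM at bin 120001 in ndhA (4660 to 5120), from 3 contacts. Crosslinked replicate 4 had 12655 CPM for the segment from trnC to psaB (10867 to 10888). Non-crosslinked replicate 3, the library with the fewest contacts over 5 kb, was the one set apart in 5 of the 11 groups.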

How the results depend on the processing

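The 7 long-range bin calls kept their directions under every alternative run, and bin 25001 stayed past the threshold in each, at 0.79 to 1.55. Bin pairs gave 11 calls as reported, 6 without the filter (6 higher, 0 lower) and 23 within replicates 1 and 2. Bin sums gave 3 calls without TMM scaling and 3 within replicates 1 and 2. With library sizes from contacts over 5 kb, which moved the median of all bins to -1.28, bin sums and bin pairs gave 0 calls each. Differences then turned to -0.50 at bin 19001, -0.87 at bin 24001, -1.02 for bins 17001 and 18001 and -0.87 for bins 25001 and 26001. The 44 partner calls became 15 by DESeq2, 25 within replicates 1 and 2, 6 within replicates 3 and 4, where 31 partners were tested, and 0 relative to the rest of the large single copy region. They were 26 to 45 with 1 library left out, 29 without crosslinked replicate 1 and 26 without non-crosslinked replicate 1. Segment calls were 3 within replicates 3 and 4 and 6 to 8 with 1 library left out. Without non-crosslinked replicates 3 and 4, added after the data were seen, the near-over-far difference was 0.819, that of the operon minus the rest -0.470, the inside value 0.150 and the long-range share -7.44 points. The inside value was 0.128 to 0.225 with 1 library left out, at an exact permutation p of 0.0286 to 0.0571, and -0.115 with scaled coverage. With the replicate number as a block, 0.794, -0.539 and 0.190 had an exact permutation p of 0.125, the smallest that block allows; bin sums gave 6 calls, long-range sums 7, pairs 11, partners 34 and segments 7. The causes were not tested. Single distant pairs are limited by depth.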
